A study of Mus musculus with 2 samples.

Results

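The genes described here handle pyrimidine nucleosides and bases: 10 genes of salvage, nucleoside cleavage and base breakdown, taken by name and read through every probe set annotated to one of them alone. Of the 10 genes, 9 had such a probe set, and together they had 20 of the 45101 probe sets on the array. Tymp (thymidine phosphorylase) had none by this annotation and was not analysed here. The genes were chosen by the ratio of antagomir-122 over mm-antagomir-122 signal seen for Cda in these same data, so the ratios are given as a description.

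The material was mouse liver on Affymetrix arrays, with 1 array for each of 2 groups. One group had been given antagomir-122, a cholesterol-linked oligonucleotide directed against the hepatocyte microRNA miR-122, and the other mm-antagomir-122, which the labels call a scrambled version. In both groups the dose was 80 mg/kg per day, the injections were made on 3 days, and livers were taken 24 h after the last one. RNA of 3 livers was combined before labelling, so each value is that of 1 pool and no spread between animals can be given. Strain, sex, age and any untreated or saline group are not given in the sources used here. In whole liver RNA, fewer cells of a type and less RNA per cell cannot be told apart.

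Cells obtain pyrimidine nucleotides both by making them anew and by salvage, in which nucleosides are phosphorylated again. Cytidine deaminase turns cytidine into uridine, uridine-cytidine kinases return both nucleosides to the nucleotide pool, and uridine phosphorylases instead split uridine to free uracil. Uracil and thymine are then broken down in sequence by Dpyd, Dpys and Upb1 to β-amino acids, and the liver is a major site both of this breakdown and of uridine release to the blood.

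Cda, the cytidine deaminase gene, was the member with the largest difference. Its only probe set, 1427357_at, had a signal of 2164 in the antagomir-122 pool and 699 in the mm-antagomir-122 pool. That is 3.10-fold higher, a log2 ratio of 1.63. The 2 genes of uridine-cytidine kinases were also above 0, Uck1 at 0.52 and Uck2 at 0.37 on its brightest probe set, and both were under 1.5-fold. The breakdown genes Dpyd, Dpys and Upb1 had log2 ratios of 0.03, -0.03 and -0.26. With 1 array per group there was no test between conditions, and a higher or lower value is always that of the antagomir-122 pool set against the other pool.

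**Figure D1:**
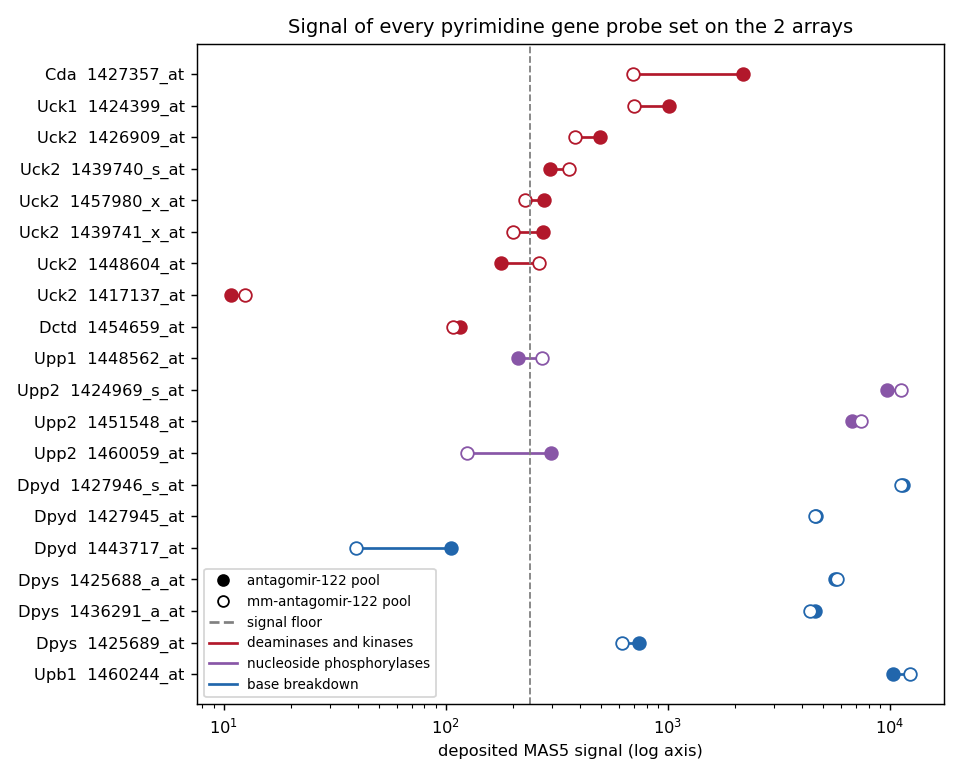
Deposited MAS5 signal of the 20 probe sets on a log axis, with filled circles for the antagomir-122 pool, open circles for the mm-antagomir-122 pool, colours for the 3 roles and a dashed line at the signal floor of 238. The Cda pair, 2164 against 699, is the widest among the 14 probe sets above the floor, while the pairs of Dpyd and Dpys at the right nearly coincide.

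The stretches before the start sites are shown for the member that differed most, for Uck1, the next highest in ratio, and for Upp2, which had a ratio of the other sign. The arrays measured RNA only, so these sequences are printed to identify the genes' start regions. Each line holds the 250 bases before a RefSeq start in GRCm38.p6, on the strand of the gene. Capitals mark matches on either strand. The GC box was searched as GGGCGG. The TATA box was searched as TATAAA. The CCAAT box was searched under the letters of its name. No matches overlap in the windows printed.
Cda, chr4:138367956-138368205, minus strand: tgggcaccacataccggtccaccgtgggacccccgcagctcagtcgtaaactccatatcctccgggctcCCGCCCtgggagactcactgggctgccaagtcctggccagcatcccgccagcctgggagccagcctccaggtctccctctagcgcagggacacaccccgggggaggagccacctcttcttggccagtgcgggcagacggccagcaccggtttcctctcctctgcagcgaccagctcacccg
Uck1, chr2:32260106-32260355, minus strand: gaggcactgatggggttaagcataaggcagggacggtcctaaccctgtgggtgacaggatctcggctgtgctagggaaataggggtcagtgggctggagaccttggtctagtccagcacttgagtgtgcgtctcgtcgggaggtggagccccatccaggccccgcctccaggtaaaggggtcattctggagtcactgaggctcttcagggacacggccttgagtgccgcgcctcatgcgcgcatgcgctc
Upp2, chr2:58754934-58755183, plus strand: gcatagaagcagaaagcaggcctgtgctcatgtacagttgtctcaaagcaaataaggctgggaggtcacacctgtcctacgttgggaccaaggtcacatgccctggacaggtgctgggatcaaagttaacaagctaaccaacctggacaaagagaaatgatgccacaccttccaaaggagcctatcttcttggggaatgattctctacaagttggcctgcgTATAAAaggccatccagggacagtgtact

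The Cda window was 68.0% G and C and held 1 match to GGGCGG, while the Uck1 window was 61.6% G and C and held no match to any of the 3 motifs. The Upp2 window was 49.2% G and C and held TATAAA starting 29 bases before the start. Another RefSeq start of Upp2 had a window of 73.2% G and C with 3 matches to GGGCGG and 1 to CCAAT, and the arrays do not say which start was used. Uck1 also had another, with a window of 63.2% G and C and no match. The printed Cda window lay within the annotated span of the gene, which ends at chr4:138368311. Over 32851 windows of this length the median was 52.4% G and C, and 32.7% held GGGCGG, 12.4% TATAAA and 33.8% CCAAT. A match is a run of letters, and its absence says nothing about a factor. RefSeq windows were found for 9 of the 10 genes.

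Genes were compared at or above a floor, a mean log2 signal equal to the 60th percentile of all probe sets without controls (a signal of 238), and the brightest probe set above it stood for its gene. Without detection calls a value near or under this floor cannot be told from background. Of the 10 genes, 8 had a probe set above it, with 14 probe sets in all. Genes with another readable probe set give a measure of reading error. Across 3860 such genes, the SD between paired log2 ratios was 0.28 per probe set, or 1.21-fold. It covers transcripts of a gene that differ in truth, and it holds nothing of how animals vary.

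Among all 10003 genes above the floor, 5.12% were higher by 1.5-fold or more and 2.62% were lower by that much. Of the 8 genes here, 1 was at least 1.5-fold higher, Cda, and 0 were 1.5-fold lower. Since the set was named with the ratio of Cda in view, nothing is read from this count. Of the 8, 4 lay above 0 and 4 below, against 50.3% of all genes above 0. Their median log2 ratio was 0.00, the same to 2 decimals as that of all genes.

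Counted from the highest ratio, Cda had rank 10 among the 10003 genes. Of 1119 genes whose mean signal lay within 1.2-fold of its own, Cda included, 1 had a higher ratio, the neutrophil gene S100a9, and 47 were at least 1.5-fold higher. Both Cda signals were above the floor, so its fold is a ratio of 2 readable values. It rests on 1 probe set, and no second probe set of Cda was there to set beside it.

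**Figure D2:**
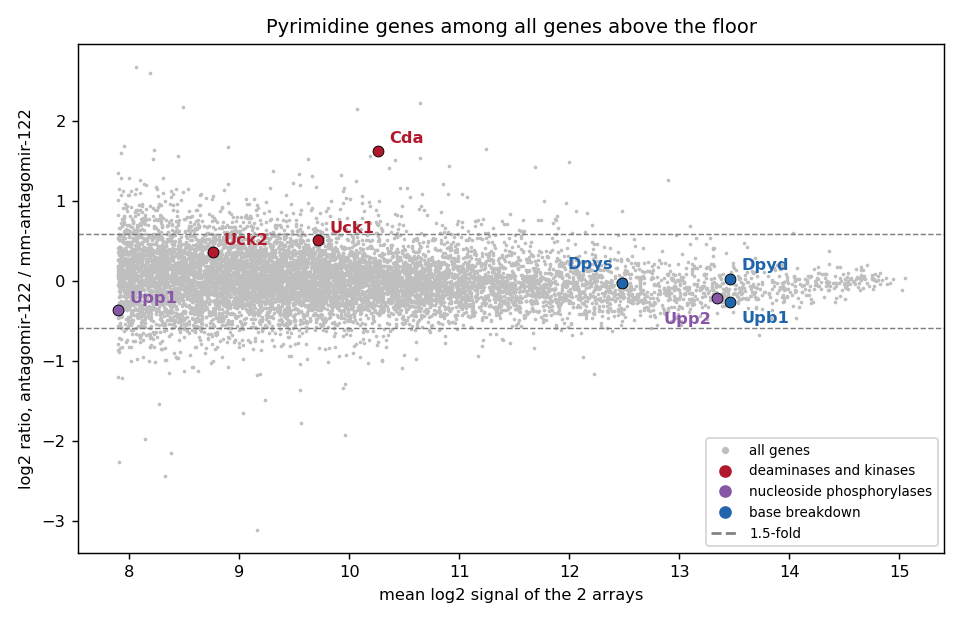
Log2 ratio of antagomir-122 over mm-antagomir-122 against the mean log2 signal of both arrays, with grey points for the 10003 genes above the floor, coloured points for the 8 pyrimidine genes and dashed lines at 1.5-fold. Cda at 1.63 lies above the upper line, and the other 7 genes lie between the lines.

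Uck1, a uridine-cytidine kinase, had signals of 1010 and 705 on its only probe set, or 1.43-fold higher. That is short of 1.5-fold and past 1.4-fold, a size reached upwards by 8.16% of all genes. Of all genes, 93.0% had a ratio at or below that of Uck1.

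Uck2, the other uridine-cytidine kinase gene, was read by 6 probe sets that differed in sign. On the brightest, 1426909_at, signals were 493 and 383, or 1.29-fold higher. On 1439740_s_at, where the suffix _s marks a design shared by several transcripts, they were 294 and 357, or 1.21-fold lower. Also above the floor, 1457980_x_at had signals of 278 and 226, the latter under the floor, and _x marks probes that may cross-hybridise. Over these 3 the log2 ratios ran from -0.28 to 0.37, with a mean of 0.13, so the probe sets disagreed by more than the size of the gene's own ratio. Of the 3 under the floor, 1439741_x_at had 272 and 201, 1448604_at had 178 and 264, and 1417137_at had 10.8 and 12.5. Over all 6, 3 were higher and 3 lower, and no direction is given for Uck2.

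Dctd, which deaminates dCMP to dUMP and so feeds thymidylate synthesis, was under the floor. Its signals were 116 and 108 on its only probe set, both too dim for a fold.

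The uridine phosphorylase genes lay below 0. Upp2, the phosphorylase known from liver, had signals of 9664 and 11208 on 1424969_s_at and 6743 and 7366 on 1451548_at. These are 1.16-fold and 1.09-fold lower, within the spread between probe sets. Its other probe set, 1460059_at, went the other way with signals of 296 and 124. Its mean lay under the floor, and against the floor it was at least 1.24-fold higher.

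Upp1, the phosphorylase found in many tissues, had signals of 211 and 271 on its only probe set. Its mean signal of 239 was barely above the floor of 238, and the antagomir-122 signal was below it. Against the floor it was at least 1.14-fold lower, and the log2 ratio of the deposited signals was -0.36.

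Among the breakdown genes, Dpyd and Dpys had log2 ratios within 0.03 of 0 on their brightest probe sets, while Upb1 was further from it. Dpyd, dihydropyrimidine dehydrogenase, which takes the first step on uracil and thymine, had signals of 11408 and 11209 on 1427946_s_at and 4638 and 4595 on 1427945_at. The log2 ratios were 0.03 and 0.01, so the 2 probe sets gave nearly the same value. On its remaining probe set, 1443717_at, 105 and 39.3 were read, neither reaching the floor.

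Dpys, dihydropyrimidinase, opens the ring in the next step, and its 3 probe sets were all above the floor. Signals were 5641 and 5748 on 1425688_a_at, 4609 and 4347 on 1436291_a_at, and 740 and 622 on 1425689_at. The log2 ratios were -0.03, 0.08 and 0.25, each within the 0.28 spread, and the suffix _a marks probes shared by transcripts of 1 gene.

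Upb1, β-ureidopropionase, releases the β-amino acids in the last step. Its signals were 10335 and 12344 on its only probe set, or 1.19-fold lower.

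Set by role, the median log2 ratio was 0.52 for the 3 readable deaminase and kinase genes (Cda, Uck1 and Uck2), -0.29 for the 2 phosphorylase genes (-0.20 with the dim Upp1 signal raised to the floor) and -0.03 for the 3 breakdown genes. The gap between the first and the last was 0.54. A median of 3 genes is its middle gene, so this gap is that between Uck1, on its only probe set, and Dpys. Without Cda, a choice made after its value was seen, the first median was 0.44 and the gap 0.47. That median is the midpoint of Uck1 and the brightest probe set of Uck2, a gene given no direction above. The lowest of the salvage values, 0.37 for Uck2, was above the highest breakdown value, 0.03 for Dpyd. That order rests on the brightest probe set of Uck2, whose second probe set lay at -0.28, below all 3 breakdown genes. It rests on that of Dpys too, since with the mean over probe sets Uck2 stood at 0.13 and Dpys at 0.10. The order and the gap were in view when the genes were named and have no replicate check.

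The probe sets of spiked bacterial and phage hybridization controls were dimmer in the antagomir-122 pool for 17 of 18, at a median log2 ratio of -0.27. Scaling on them adds 0.27 to every ratio. Then Cda stood at 1.91, Uck1 at 0.79 and Uck2 at 0.64, and 3 of the 8 genes were at least 1.5-fold higher, while Upp2, Dpys and Upb1 turned from below to above 0. Over all genes it moved the counts past 1.5-fold from 512 higher and 262 lower to 1693 and 63, or from 66.1% to 96.4% higher. The signs of Upp2 and Upb1 are therefore relative to the bulk of genes, and that of Dpys depended both on the scaling and on the probe set used. Those of Cda, Uck1, Upp1 and Dpyd were the same under every choice tried that kept the gene above the floor.

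**Figure D3:**
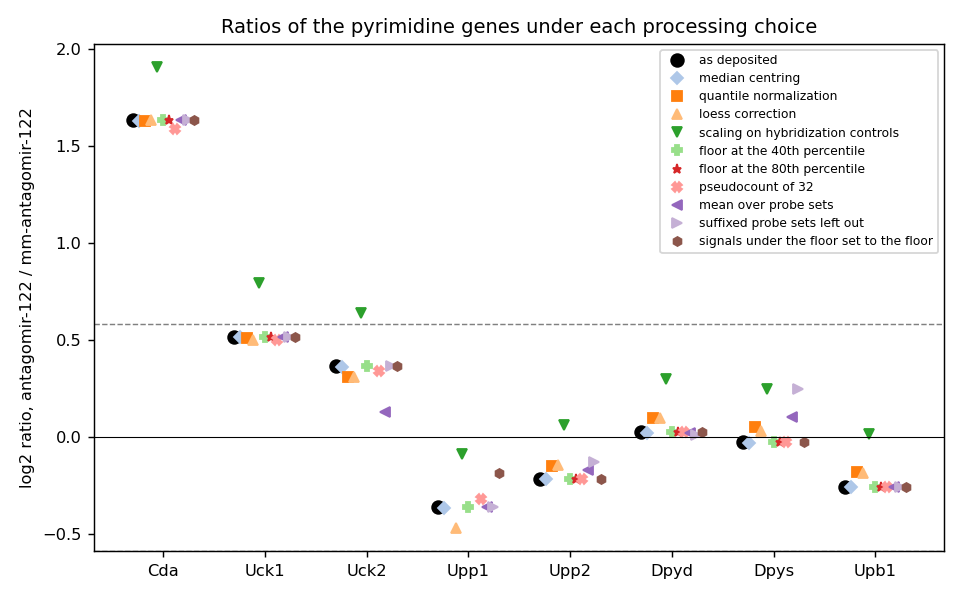
Log2 ratio of the 8 genes as deposited (black circles) and under 10 other processing choices, with dashed lines at 1.5-fold. Cda stays between 1.59 and 1.91, and scaling on the hybridization controls is the choice that lifts Uck1 and Uck2 past 1.5-fold.

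The rest of pyrimidine metabolism was described through 6 lists of 41 genes, of which 31 were above the floor. Of the 31, 3 were higher and 2 lower by 1.5-fold or more, 11 lay above 0, and the median log2 ratio was -0.08. Over all genes the shares were 5.12% higher, 2.62% lower and 50.3% above 0. None of the 6 lists had more than 2 members past 1.5-fold in 1 direction.

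In de novo synthesis, 4 of 5 genes were readable, with a median of -0.21 (-0.17 with the dim Ctps1 signal raised to the floor), and 1 was at least 1.5-fold lower. Umps, which makes UMP from orotate, had signals of 590 and 950 on its brightest probe set, or 1.61-fold lower. Another probe set of Umps had a log2 ratio of -0.02, so the value depends on the probe set, and Umps was not past 1.5-fold with the mean over probe sets, with unsuffixed probe sets or with control scaling. Cad, the enzyme of the first steps, had -0.07, with signals of 266 and 279 close to the floor. The CTP synthase genes Ctps1 and Ctps2 had -0.34 and 0.23, with the antagomir-122 signal of Ctps1 under the floor. Dhodh was under the floor at 218 and 211.

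Of the other kinases of pyrimidine nucleosides and nucleotides, 8 of 10 were readable and 0 were past 1.5-fold in either direction, with log2 ratios from -0.32 to 0.10. Uckl1, a kinase-like relative of Uck1 and Uck2, had 0.09. Cmpk1, which phosphorylates UMP and CMP, had -0.22, the thymidine kinase genes Tk1 and Tk2 had -0.01 and 0.10, and the deoxycytidine kinase gene Dck had -0.07. Dtymk, Nme1 and Nme2, which act on nucleoside mono- and diphosphates, had -0.21, -0.32 and -0.04. The ratio of Uck1 was above all 8 of these.

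In the thymidylate and dNTP list, 6 of 7 genes were readable and 2 were at least 1.5-fold higher. Samhd1, a dNTP hydrolase of myeloid and other cells, had signals of 1139 and 493 on a probe set with the suffix _x, or 2.31-fold higher, and its 4 readable probe sets ran from 0.17 to 1.21. Its other readable probe sets had 0.17, 0.27 and 0.32, and the Samhd1 call was lost with the mean over probe sets and with unsuffixed probe sets. Rrm2b, a ribonucleotide reductase subunit induced by p53, had signals of 385 and 201 and was at least 1.62-fold higher against the floor. Rrm1 and Rrm2, further subunits of the reductase, had log2 ratios of -0.16 and 0.22, with others of their probe sets down to -0.69 and -0.29, and Dut and Dctpp1, which clear dUTP and dCTP, had -0.30 and -0.10. Tyms, thymidylate synthase, was under the floor at 90.1 and 82.3.

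Nucleotidases, which return nucleotides to nucleosides, had a median of -0.34 over 5 of 7 genes. Nt5c3, the pyrimidine 5′-nucleotidase gene, had signals of 802 and 1226, or 1.53-fold lower, a call lost with control scaling. Nt5e, Nt5c and Nt5c2 had log2 ratios of -0.42, -0.34 and -0.24, and Nt5m had 0.05. Of the nucleoside transporter genes, 3 of 7 were readable. Slc29a1, an equilibrative transporter, had -0.25, Slc29a3 had 0.03 and Slc29a4 had 0.19.

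The β-amino acids left by Upb1 are taken further by transaminases and dehydrogenases, and all 5 genes listed for these and nearby steps were readable. Abat, the transaminase that acts on β-alanine, had signals of 4625 and 3067, or 1.51-fold higher. Agxt2 had a log2 ratio of 0.18, Aldh6a1 -0.11, Hibadh -0.08 and Hibch -0.44. Apart from Abat, none of the 5 reached 1.5-fold on its brightest probe set, while another of Hibch was at least 1.77-fold lower against the floor.

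Relatives that share the cytidine deaminase fold, several of which edit RNA or DNA, had a median of 0.24 over 5 of 7 genes. Apobec3, an antiviral deaminase of leukocytes, had signals of 476 and 278, or 1.71-fold higher. Apobec1, the editor of the apolipoprotein B transcript, had 0.24, Adat3 0.26, Adat2 0.11 and Cdadc1 -0.17. The purine salvage and breakdown list, read as a parallel pathway, had a median of -0.05 over 10 genes. Its members past 1.5-fold numbered 1 upwards and 0 downwards, namely Allc (allantoicase) at 1.53-fold higher with signals of 387 and 254. That call was lost with quantile normalization, loess correction, the 80th percentile floor, the pseudocount of 32 and unsuffixed probe sets. The next largest was Pnp, which splits purine nucleosides as Upp1 and Upp2 split uridine, at -0.46. Adk had -0.04 on its brightest probe set, while its 5 readable probe sets ran up to 0.92.

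**Figure D4:**
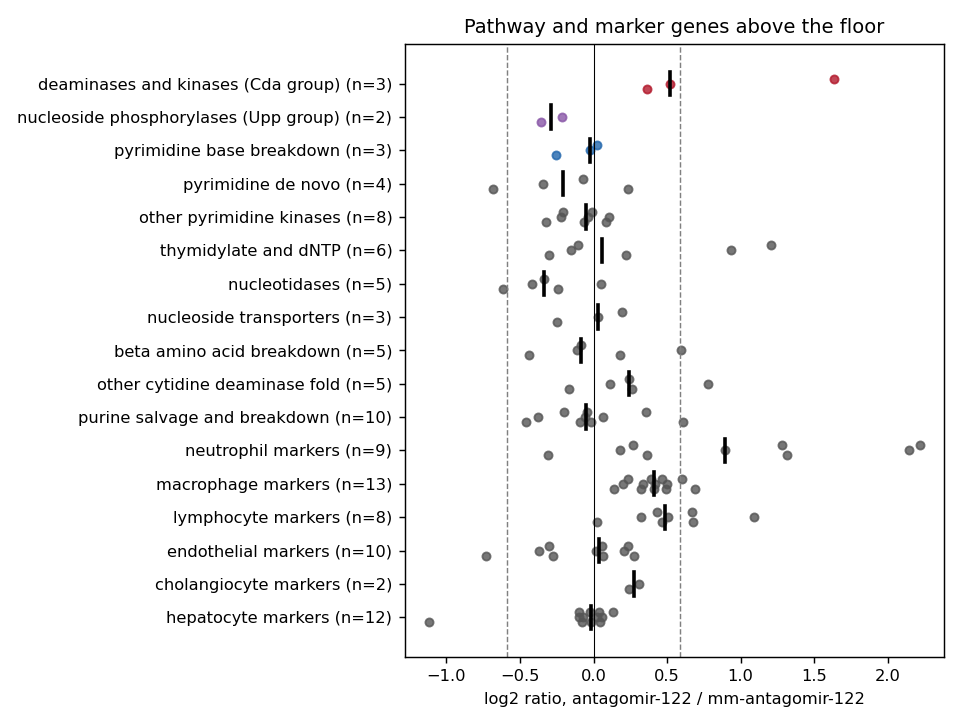
Log2 ratios of the genes above the floor in each list, 1 point per gene, with a black bar at the list median and dashed lines at 1.5-fold. Cda at 1.63 lies to the right of all other pyrimidine and purine genes. The neutrophil markers run from -0.31 to 2.22, a range that also holds Uck1, Uck2 and the breakdown genes.

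Human granulocytes are a known source of cytidine deaminase, so blood cell markers are set beside the Cda value. Of 16 neutrophil markers, 9 were above the floor, with 8 of them above 0, 5 past 1.5-fold upwards and a median of 0.89 on the log2 scale. With dim signals raised to the floor that median was 0.63, since it rests on Ltf, whose control signal was under the floor. Over all genes 5.12% were past 1.5-fold upwards and 50.3% lay above 0, shares that also stand beside the macrophage and lymphocyte counts without control scaling. S100a8 had signals of 3442 and 739, S100a9 2261 and 511, and Ngp 1283 and 515. Mpo and Ltf were at least 1.68-fold and 1.54-fold higher against the floor, while Elane had a log2 ratio of -0.31. Csf3r and Mmp8 had 0.37 and 0.27, and Lcn2, which hepatocytes also make, had 0.18. The summed signal of the 9 was 36284 and 27330, or 1.33-fold higher. Without Lcn2, a removal chosen after the values were seen, it was 2.82-fold higher, and without S100a8 and S100a9 as well it was 1.68-fold higher (3199 and 1906 over 6 genes). Of the 5 markers under the floor by their mean, Camp (13.0 and 10.3), Cxcr2, Prtn3 and Ctsg were under it in both pools, and Mmp9 had signals of 267 and 197. The part of these cells in the Cda ratio was not tested.

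All 13 macrophage markers lay above 0, with a median of 0.41, 2 of them at least 1.5-fold higher (Adgre1 and C1qc, at 0.60 and 0.69), and summed signals of 74714 and 56520. With control scaling, which adds 0.27 to every ratio, 10 of the 13 were at least 1.5-fold higher, as were 7 of the 8 readable lymphocyte markers. Under that scaling 1693 of all 10003 genes were also that much higher. The 8 readable of 12 lymphocyte markers had a median of 0.49, with 3 at least 1.5-fold higher, Ighm, Nkg7 and Ms4a1, at 1.09, 0.68 and 0.67, and summed signals of 7295 and 4547. Of the other 5, Ptprc, Cd8a, Il2rb and Cd79b had 0.51, 0.47, 0.32 and 0.02, and Cd79a was at least 1.17-fold higher against the floor. Ighm had signals of 2784.5 and 1309 on a probe set with the suffix _s, and its 4 readable probe sets ran from 0.08 to 1.09. The lymphocyte count fell from 3 to 2 with quantile normalization, loess correction and the mean over probe sets. With unsuffixed probe sets it was 2 of 5, and the macrophage count was 1 of 12. Samhd1 and Apobec3, named above, are also expressed by leukocytes, and the part of those cells in their ratios was not tested. The 10 endothelial markers had a median of 0.04, with 1 at least 1.5-fold lower, Tek at -0.73, and with Tie1 at -0.37. The Tek call was lost with control scaling and the 80th percentile floor. Of 7 cholangiocyte markers, the 2 readable, Tspan8 and Anxa3, had 0.31 and 0.24. Of the 4 under the floor by their mean, Epcam had signals of 37.1 and 834.3 on a probe set with the suffix _x, the latter above the floor. Krt19 (108.8 and 159.5), Sox9 (100.7 and 132.8) and Krt7 (73.2 and 6) were under it in both pools, so no direction is given for this list. Hepatocyte markers, which check the labelled tissue, were present on both arrays, with Alb at 26554 and 26970. Their median was -0.02 over 12 genes, with 1 at least 1.5-fold lower, Ass1 at -1.12 on a dim probe set, and with Apoc3 at 0.14. Of all genes, 2.62% were lower by 1.5-fold or more.

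The 5 genes whose log2 ratio was nearest to that of Cda, among genes above the floor on both arrays, were Pdzd11 at 1.65, Pde6c at 1.67, Noct at 1.56, Ddc at 1.53 and Bckdk at 1.53. This likeness is over 2 arrays only, as the absolute difference in log2 ratio, and ran from 0.02 to 0.11. Pde6c was read by 1 probe set with the suffix _a, at 850 and 267, the latter close to the floor. The value of Pdzd11 came from a probe set with the suffix _x, and its other probe set above the floor, with signals of 167 and 549, was at least 2.30-fold lower against the floor.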

How the data were processed

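Liver RNA pools on 2 Affymetrix arrays were compared, 1 per group, with groups taken from the sample titles. The deposited values were linear signal intensities made by the authors with MAS5, per the submitters' processing notes (version not given in the sources used here), and their 2% trimmed mean was 500.0 on both arrays. Probe sets were named through the platform annotation and, by gene identifier, the RefSeq table of GRCm38.p6. Of 45101, 64 were controls, 34945 had 1 gene, and 932 with several genes and 9160 with none were not used. Ratios are log2 of deposited signals with no pseudocount. A signal under the floor was replaced by the floor where a fold is given as at least that size. Pandas 2.3.3 and numpy 2.4.6 were used, and the calculation was checked on simulated data. The genes, lists and thresholds were chosen with earlier results of these data known. Every named gene has its brightest probe set given. In lists of over 8 readable genes, those past 1.5-fold and the 2 largest ratios were named. Markers beyond these, and Adk, were chosen after their values were seen. The closing section gives the alternatives tried.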

Additional observations from a re-analysis of the deposited data

How the results depend on the processing

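Alternatives were median centring, quantile normalization, loess correction (span 0.3), scaling on hybridization controls, a pseudocount of 32, floors at percentiles 40 and 80, averaging a gene's probe sets, using unsuffixed probe sets only, raising dim signals to the floor, and thresholds of 1.4-fold and 2-fold. All 77 alternative log2 ratios of the 8 genes stayed within the 0.28 probe-set spread of the reported value, and 29 of 30 role medians did. The exception was the 80th percentile floor, which left 2 salvage genes with a median of 1.07. Part of this was fixed by design, so it is a weak check. A floor change cannot alter a kept ratio, and control scaling moves each by 0.274 against a cut of 0.277. Upp1 with quantile normalization, and Upp1 and Uck2 with the 80th percentile floor, dropped out and are not counted. The count of pyrimidine genes higher by 1.5-fold was 3 with control scaling and 2 at 1.4-fold, and 1 under the other 10, with 0 lower under all 12. Genes higher and lower over the whole table numbered 1693 and 63 with control scaling, 1163 and 531 with the 40th percentile floor, 184 and 98 with the 80th, 816 and 485 at 1.4-fold, and 83 and 31 at 2-fold. Of 140 list medians 5 moved further. With the 40th percentile floor the neutrophil median was 0.44 and the cholangiocyte median -0.40. With the 80th the neutrophil median was 1.73, the lymphocyte median 0.80 and the thymidylate and dNTP median 0.55. Of 336 list counts 35 moved by over 1.5 times, among them the macrophage and lymphocyte counts. The calls of Umps, Nt5c3, Allc and Samhd1 were lost under choices named beside them. The salvage to breakdown gap ran from 0.46 to 1.10. Outside the floors at percentiles 40 and 80 its salvage side was the ratio of Uck1, so the range says little of Cda or Uck2. Leaving Cda out was tried only on the signals as deposited. Dpys changed sign with quantile normalization (0.05), loess (0.03), the mean over probe sets (0.10) and unsuffixed probe sets (0.25). The causes were not tested. No paired analysis was possible because each group had 1 array, and none could be left out. Pooling, the single arrays and the lack of detection calls limit the precision of every value, most of all for Upp1, Uck2 and Dctd near or under the floor.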
